A study of Mus musculus with 19 samples.

Results

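Annexins and S100 proteins are families of calcium-binding proteins, and 8 of their genes were followed in glial cells sorted from mouse embryos and newborns. They were the annexins Anxa1, Anxa2, Anxa5 and Anxa6 and the S100 genes S100a4, S100a6, S100a10 and S100a11. All probe sets that the array annotation assigns to 1 of these symbols were taken, which gave 11 of 12488 probe sets for 8 of the 8949 gene symbols in that annotation. Anxa1 had 3 probe sets, S100a10 had 2 and each other gene had 1. All 11 lay above the lower limit used for low values, an expression index of 68.5, on 3 arrays or more, and so entered the tests. The probe set of S100a11 is also annotated to S100a11-ps and the predicted gene Gm12854, so its signal may be shared with near-identical copies and is uncertain.

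All animals carried green fluorescent protein (GFP) under a glial promoter, which marks crest stem cells first and glia afterwards, and fluorescent cells were collected by flow cytometry. Neural crest stem cells came from the trunk at E9.5 (embryonic day 9.5), with 3 arrays. The sciatic nerve gave Schwann cell precursors at E12 (3 arrays), cells labelled Schwann cells at E14 (3), early Schwann cells at E16 (4), and Schwann cells at E18 (3) and P0, the day of birth (3). No other genotype, strain or treatment was labelled, E9.5 differed from every later stage in tissue as well as age, and the labels do not tell whether replicate arrays represent different animals.

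Annexins bind phospholipids of membranes when calcium is present, and they take part in membrane repair, vesicle traffic and the anchoring of actin to membranes. S100 proteins are small EF-hand proteins that change shape on binding calcium and then dock on target proteins, several of which are annexins. S100a10 is the exception that no longer needs calcium, and it forms a complex with Anxa2 at the plasma membrane. In peripheral nerve the family is best known for S100b, the classical marker of Schwann cells.

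The arrays were alike in scale, with a median expression index of 174 to 207 per array. The Schwann lineage markers Sox10 and Erbb3 lay above the floor on 19 of 19 arrays. Rank correlations between arrays of a stage were at least 0.952, except at E16 (lowest 0.928) and P0 (lowest 0.894). The ratio of 3' to 5' signal of GAPDH, a measure of RNA shortening taken from control probe sets, was 2.33 to 3.41 at E9.5 and 3.18 to 4.53 at E12. It was 5.10 to 6.23 at E14, 3.84 to 9.12 at E16, 4.11 to 4.83 at E18 and 4.69 to 7.69 at P0. Its highest values were on E16 replicate 2 and P0 replicate 1, both of lot 1. The labels give each array a lot or batch number without saying what step it marks. S100b gave little signal here, with 16 of 19 arrays at or below the floor, a highest value of 149 and 3 arrays listed at 0.

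**Figure D1:**
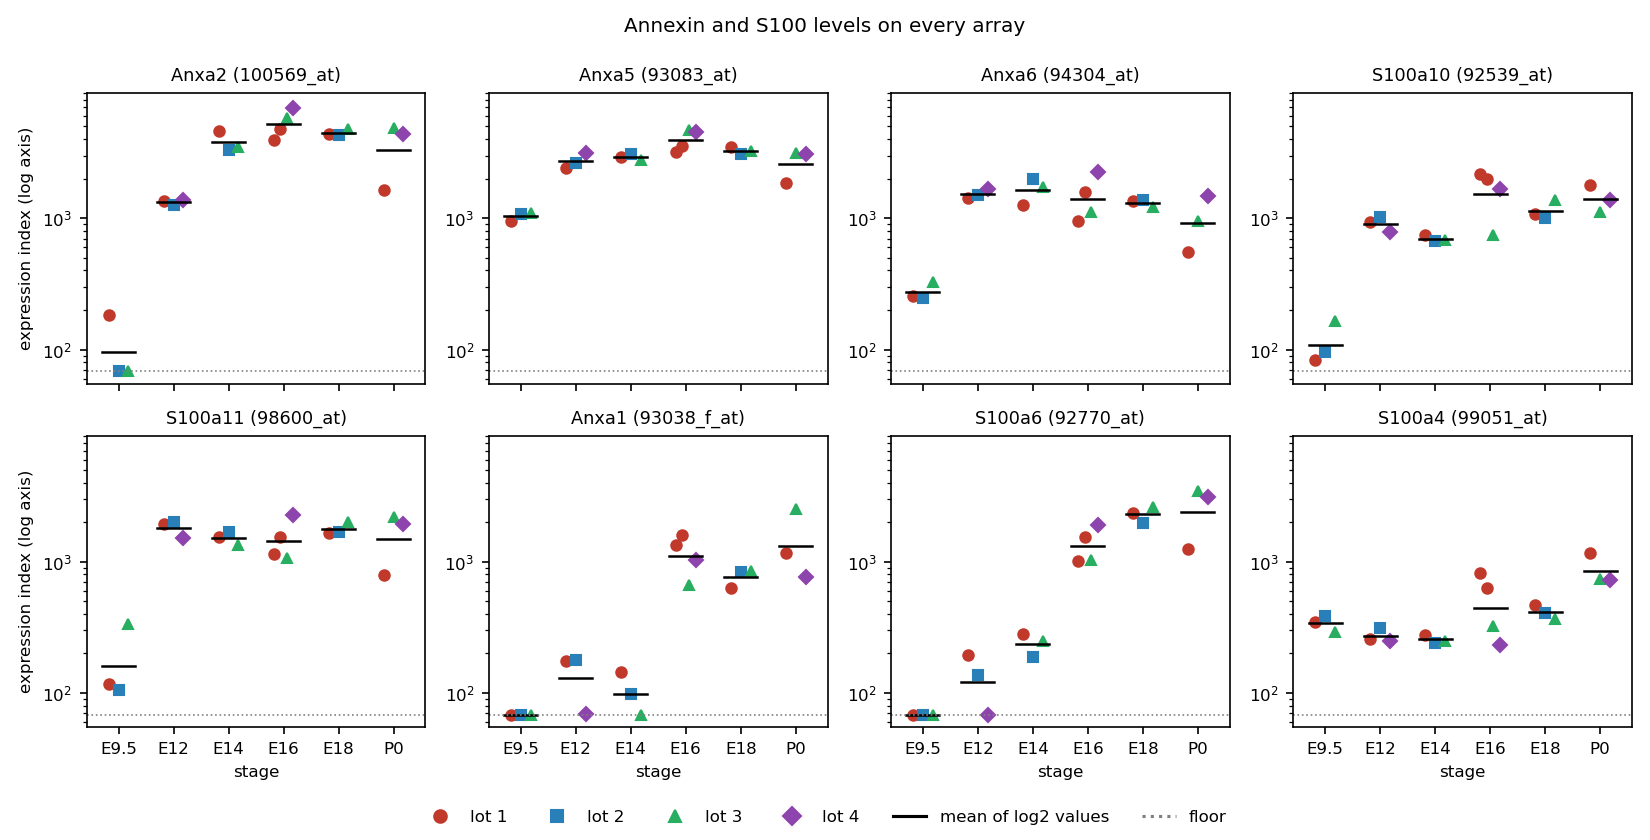
Expression index (log axis) of the 8 genes at the 6 stages, 1 panel per gene with its brightest probe set, 1 point per array with colour and shape by lot, and a bar for the mean of log2 values. Values under the floor of 68.5 are drawn at the floor (dotted line). Anxa2, Anxa5, Anxa6, S100a10 and S100a11 already lie higher at E12, while the Anxa1 and S100a6 points at E16, E18 and P0 all lie above those at E14.

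The genes that passed the test did so at 2 steps. Anxa2, Anxa5, Anxa6, S100a10 and S100a11 rose between the trunk crest at E9.5 and the nerve at E12. Anxa1 and S100a6 rose between E14 and E16. Whether S100a6 and Anxa1 on probe set 93038_f_at had already risen at E12 depended on the settings, and with the floor at the 10th percentile both passed there too. Anxa1 on 161703_f_at and 93037_i_at passed there in no setting. S100a4 passed the test only over the longer span from E12 to P0 and by the F-test over the stages. By the F-test over all 6 stages, 9 of 11 probe sets of all 8 genes differed, against 29.0% of all probe sets tested. By the F-test over the 5 nerve stages, 5 of 11 differed, of Anxa1, Anxa2, S100a4 and S100a6, against 13.1% of all probe sets tested.

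In E12 against E9.5, which asks how cells that have entered the nerve differ from crest stem cells, 5 of 11 probe sets rose and 0 fell. Of all probe sets tested, 9.70% rose and 14.1% were called in either direction. With 1 probe set per gene, the median log2 change of the 8 genes was 1.93, against 0.01 over all 10414 probe sets tested. The 8 genes were chosen with earlier results of these data known, so such shares and medians are descriptions throughout. The arrays are bulk samples, so fewer cells of a type and less RNA per cell cannot be told apart.

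Anxa2 and its partner S100a10 both rose at nerve entry. Anxa2, a membrane-bound annexin that links actin to membranes and binds plasminogen activator at the cell surface, had expression indices of 1357, 1260 and 1379 at E12, against 184, 27.7 and 33.4 at E9.5. The groups did not overlap, and 2 of the 3 E9.5 arrays lay at the floor. Anxa2 was therefore at least 14-fold higher (log2 change 3.81, SE 0.38, adjusted p = 4e-06 by limma with Benjamini-Hochberg adjustment, as for all adjusted p-values here). S100a10, which carries Anxa2 and ion channels to the membrane, had 936, 1017 and 787 at E12, against 82.6, 95.3 and 164 at E9.5 on probe set 92539_at. This was an 8.34-fold rise (log2 change 3.06, SE 0.33, adjusted p = 9.5e-06). Its other probe set, 162340_r_at, disagreed, with 197 ± 41.0 at E12 and 162 ± 8.48 at E9.5 (SD, n = 3 each; log2 change 0.26, SE 0.19, adjusted p = 0.44), and it passed no test in any comparison.

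S100a11, a partner of Anxa1 that also works in membrane repair, stood at 1947, 1999 and 1508 at E12, against 118, 106 and 334 at E9.5. Every E12 array lay well above every E9.5 array, an 11.2-fold rise (log2 change 3.48, SE 0.41, adjusted p = 1.8e-05). Anxa6, a large annexin with a duplicated core that works in endocytosis and cholesterol handling, had 1432, 1512 and 1672 at E12, against 254, 247 and 329 at E9.5. It was 5.6-fold higher, with groups far apart (log2 change 2.48, SE 0.32, adjusted p = 4.8e-05). Anxa5, known for binding phosphatidylserine on dying cells, had 2411, 2648 and 3129 at E12, against 955, 1074 and 1103 at E9.5. Its rise was 2.6-fold (log2 change 1.38, SE 0.20, adjusted p = 0.00013), and its E9.5 arrays already lay well above the floor.

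The other genes did not pass the test at nerve entry with the floor at the 25th percentile. Anxa1 had 174, 178 and 69.4 at E12 on probe set 93038_f_at, against 8.17, 11.3 and 11.2 at E9.5, all 3 of which lie at the floor (log2 change 0.91, SE 0.43, adjusted p = 0.19). S100a6 had 194, 136 and 67.3 at E12, against 28.1, 30.9 and 30.4 at E9.5 (log2 change 0.83, SE 0.38, adjusted p = 0.18). Neither pair of groups overlapped, but the E9.5 values and 1 of the E12 values of S100a6 are below the floor, where sizes are not resolved. With the floor at the 10th percentile both passed, Anxa1 with a log2 change of 2.27 (adjusted p = 0.0021) and S100a6 with 2.03 (adjusted p = 0.0016). Both also passed with array weights (adjusted p = 0.012 each) and without E12 replicate 4, the array with the lowest E12 value of both (log2 change 1.36 and 1.25). These Anxa1 values are those of 93038_f_at. On 161703_f_at Anxa1 had 85.8, 125 and 0 at E12, against 0 on every E9.5 array (log2 change 0.40, SE 0.45, adjusted p = 0.66). On 93037_i_at every array of both stages lay at the floor. Neither of these probe sets passed at nerve entry in any setting. S100a4 had 259, 311 and 248 at E12, against 345, 386 and 291 at E9.5, with overlapping groups (log2 change -0.32, SE 0.35, adjusted p = 0.65).

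Lots 1 and 2 each held both stages. Within lot 1 the log2 change was 2.88 for Anxa2, 1.34 for Anxa5, 2.50 for Anxa6, 3.50 for S100a10 and 4.04 for S100a11. Within lot 2 the same changes were 4.20, 1.30, 2.61, 3.42 and 4.23, so all 5 were positive in both lots. With the GAPDH 3'/5' signal as a covariate all 5 still passed. Several lists of markers of cells and of tissue dissociation moved with this comparison. The sum of 7 Schwann lineage markers was 13121 to 15559 at E12, against 4984 to 5945 at E9.5, and Erbb3, Gfra3 and Fabp7 rose. No tested marker of endothelium, mural cells, neutrophils, mast cells or neurons rose, and of perineurium and epithelium only Krt8 did. The summed index of 12 fibroblast markers was 16056 to 17711 at E12, against 4041 to 5509 at E9.5. Here 4 of 12 rose (Col1a2, Col3a1, Fbln2 and Postn). Dcn was 90.0 ± 30.4 against 51.1 ± 12.3 and Lum 70.9 ± 5.92 against 65.4 ± 7.14 (SD, n = 3 each), both near the floor. Pdgfra averaged 122 against 132 and Thy1 194 against 253, both lower at E12 but not called. The sum of 11 macrophage markers was 2237 to 4960 at E12 and 1168 to 1351 at E9.5, 4 of 9 tested rose, and Lyz2 and Fcer1g were at or below the floor on every array. The sum of 5 erythroid markers was 2333 to 9495 at E12 and 829 to 1353 at E9.5, and 3 of 5 rose. The sum of 15 dissociation stress genes was 17634 to 35726 at E12 and 5287 to 7022 at E9.5, and 10 of 15 rose. The part of these markers in the rise of the annexins and S100 genes was not tested.

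Of the 5 genes that rose at nerve entry, Anxa2, S100a11 and Anxa5 have an entry in the promoter table. The windows of Anxa2 and S100a11 are shown because they hold the matches described next, while that of Anxa5 was searched too and holds none of the motifs named here. Each covers 250 bases before and 50 after the annotated start, 5′ to 3′ on the gene's own strand, from RefSeq on GRCm38.p6. The Anxa2 window is chr9:69453433-69453732 on the plus strand and the S100a11 window chr3:93520246-93520545 on the plus strand. Capitals mark matches to the AP-1 motif TGANTCA, which reads the same on both strands, and to the TATA motif TATAAA.
Anxa2: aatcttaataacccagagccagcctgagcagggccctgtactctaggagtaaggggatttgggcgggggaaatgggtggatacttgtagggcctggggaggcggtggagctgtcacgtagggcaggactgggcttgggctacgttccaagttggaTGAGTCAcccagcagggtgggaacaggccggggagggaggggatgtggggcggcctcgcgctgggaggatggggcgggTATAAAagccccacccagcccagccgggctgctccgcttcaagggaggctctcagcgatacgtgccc
S100a11: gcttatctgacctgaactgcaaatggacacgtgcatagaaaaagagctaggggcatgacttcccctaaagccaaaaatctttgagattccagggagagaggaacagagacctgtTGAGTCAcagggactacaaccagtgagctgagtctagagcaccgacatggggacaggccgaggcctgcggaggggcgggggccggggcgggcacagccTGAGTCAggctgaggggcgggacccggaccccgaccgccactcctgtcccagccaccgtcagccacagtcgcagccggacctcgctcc
Anxa2 holds TGAGTCA at position -95 and TATAAA at position -17 relative to the start, and S100a11 holds TGAGTCA at -136 and at -38. Of the 8 genes, 6 matched the promoter table, and of these 6 only Anxa2 and S100a11 hold the AP-1 letters, which stand in 7.81% of all 32851 promoters searched on both strands. The GC box GGGCGG, searched on both strands, occurs 3 times each in Anxa2 and S100a11 and in no other of the 6, against 35.7% of all promoters with at least 1 match. These matches are letters in a window and carry no measurement of binding.

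In E14 against E12, 0 of 11 probe sets were called by limma, against 2.09% of all probe sets tested. Anxa2 and S100a6 had an unadjusted p under 0.05 by limma. The share of all probe sets at that threshold is not given here, so this is no result about the members. Anxa2 had 4652, 3323 and 3483 at E14, against 1357, 1260 and 1379 at E12. The groups did not overlap and the log2 change was 1.50 (SE 0.38), but the adjusted p of 0.055 missed the threshold. Over the alternative settings this p ran from 0.00041 to 0.25. The log2 change was 1.78 within lot 1 and 1.40 within lot 2. S100a6 had 280, 187 and 251 at E14, against 194, 136 and 67.3 at E12, with overlapping groups (log2 change 0.95, SE 0.38, adjusted p = 0.34). The log2 changes of the other 6 genes on their brightest probe sets lay between -0.38 and 0.11.

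In E16 against E14, the step from E14 cells to early Schwann cells, 3 of 11 probe sets rose, 1 of S100a6 and 2 of Anxa1, and 0 fell. Of all probe sets tested, 0.586% rose and 1.69% were called in either direction. The median log2 change of the 8 genes was 0.64, against -0.04 over all probe sets tested.

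Anxa1, an annexin known for ending inflammation through formyl peptide receptors and for membrane repair, had the largest changes. On probe set 93038_f_at it had 1342, 1583, 667 and 1031 at E16, against 145, 97.7 and 55.7 at E14. The groups lay far apart, and with 1 E14 array at the floor the rise was at least 11.1-fold (log2 change 3.47, SE 0.40, adjusted p = 1e-04). On 161703_f_at it had 1687, 1834, 504 and 859 at E16, against 67.9, 23.3 and 30.1 at E14. All 3 E14 arrays lay at the floor, so this was at least 15.7-fold (log2 change 3.97, SE 0.42, adjusted p = 3.9e-05). The dimmest probe set, 93037_i_at, had 114, 172, 148 and 114 at E16, against 23.7, 0 and 3.49 at E14, and did not pass (log2 change 0.98, SE 0.31, adjusted p = 0.16). Its groups did not overlap, and its E14 arrays were all at the floor.

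S100a6, also called calcyclin and known to bind annexins and the calcyclin-binding protein Cacybp, had 1021, 1550, 1025 and 1903 at E16, against 280, 187 and 251 at E14. It was 5.62-fold higher with no overlap (log2 change 2.49, SE 0.36, adjusted p = 0.00076). Lots 1 and 3 held both stages. Within lot 1 the log2 change was 3.32 for Anxa1 on 93038_f_at, 4.68 on 161703_f_at and 2.17 for S100a6. Within lot 3 these changes were 3.28, 2.88 and 2.03. With E16 replicates 1 and 2 and P0 replicate 1 left out, a setting chosen after seeing the data, they were 3.06, 3.26 and 2.57, and all 3 still passed.

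Neither gene was called between neighbouring stages after E16. Anxa1 on 93038_f_at averaged 1156 ± 397 at E16 (n = 4), 766 ± 122 at E18 and 1489 ± 922 at P0 (SD, n = 3 each). The order of its stage means was P0, E16, E18, E12, E14 and E9.5, and neighbours in this order overlapped except E18 with E12 and E14 with E9.5. The mean of S100a6 was 29.8 ± 1.49 at E9.5, 133 ± 63.7 at E12 and 239 ± 47.4 at E14. It was then 1374 ± 431 at E16, 2308 ± 321 at E18 and 2603 ± 1189 at P0 (SD, n = 3, at E16 n = 4). Its means followed the order of age, and the ranges of E12 and E14 and of E18 and P0 overlapped.

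The other genes did not pass in E16 against E14. S100a10 on 92539_at had 2170, 1979, 741 and 1670 at E16, against 751, 667 and 684 at E14 (log2 change 1.12, SE 0.31, adjusted p = 0.096). E16 replicate 3 alone lay within the E14 range, and without it the log2 change was 1.46 and the adjusted p 0.003. S100a4 had 827, 634, 321 and 231 at E16, against 278, 241 and 249 at E14 (log2 change 0.80, SE 0.32, adjusted p = 0.35). Its 2 high arrays were those of lot 1, and without them and the lot-1 array of P0 the log2 change was 0.09. Anxa5 had a log2 change of 0.43 (SE 0.18, adjusted p = 0.39), Anxa2 of 0.48 (SE 0.36, adjusted p = 0.66), Anxa6 of -0.23 (SE 0.30, adjusted p = 0.82) and S100a11 of -0.06 (SE 0.38, adjusted p = 0.98).

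The sum of 7 Schwann lineage markers was 10686 to 17707 at E16 and 14614 to 16857 at E14, with Mbp called higher and 2 markers lower. Mbp averaged 2750 at E16 against 943 at E14, and Fabp7 1020 against 4570. The fibroblast marker sum was 29010 to 36344 at E16 and 20909 to 28158 at E14, with 1 of 12 called, Col1a1 (6721 ± 1200 at E16, n = 4, against 3751 ± 896 at E14, n = 3; SD). Dcn, a defining fibroblast gene, ran from 123 to 3395 at E16, its highest value being on replicate 2, and was 363 ± 115 at E14 (SD, n = 3). Itgb4, counted among perineurial markers but also made by Schwann cells, ran from 459 to 1588 at E16, against 299 ± 6.09 at E14 (SD, n = 3). Neither it nor any other tested perineurial marker was called. Krt8 averaged 317 at E16 against 655 at E14, and Slc2a1 249 against 146. The perineurial sum was 2106 to 3541 at E16 and 2064 to 2316 at E14. The sum of the dissociation stress genes was 27925 to 46479 at E16 and 31081 to 39071 at E14. The macrophage sum was 1283 to 1695 at E16 and 1824 to 3368 at E14. The part of these markers in the rise of Anxa1 and S100a6 was not tested.

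The promoter windows of Anxa1 and S100a6, the pair that rose at this later step, are chr19:20390622-20390921 on the minus strand and chr3:90612644-90612943 on the plus strand, with the same capitals as above.
Anxa1: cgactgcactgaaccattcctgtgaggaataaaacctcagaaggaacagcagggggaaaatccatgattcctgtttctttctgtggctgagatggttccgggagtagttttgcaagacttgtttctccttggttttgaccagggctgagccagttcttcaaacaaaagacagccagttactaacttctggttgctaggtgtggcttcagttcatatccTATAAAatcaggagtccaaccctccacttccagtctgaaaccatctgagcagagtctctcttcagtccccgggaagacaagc
S100a6: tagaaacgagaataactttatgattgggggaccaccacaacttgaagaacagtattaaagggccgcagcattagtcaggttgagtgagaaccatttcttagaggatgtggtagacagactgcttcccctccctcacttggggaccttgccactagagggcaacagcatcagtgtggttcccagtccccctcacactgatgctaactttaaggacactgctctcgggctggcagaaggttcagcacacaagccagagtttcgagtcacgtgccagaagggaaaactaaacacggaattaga
Anxa1 holds TATAAA at position -32, and S100a6 holds neither motif in capitals. TATAAA, searched on both strands with its reverse complement TTTATA, stands in 3 of the 6 promoters (Anxa1, Anxa2 and S100a4), against 13.6% of all promoters. The E-box CACGTG stands in S100a6 and S100a11, against 7.15% of all promoters, and the TEAD letters CATTCC or their reverse complement in Anxa1 only, against 14.7%.

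**Figure D2:**
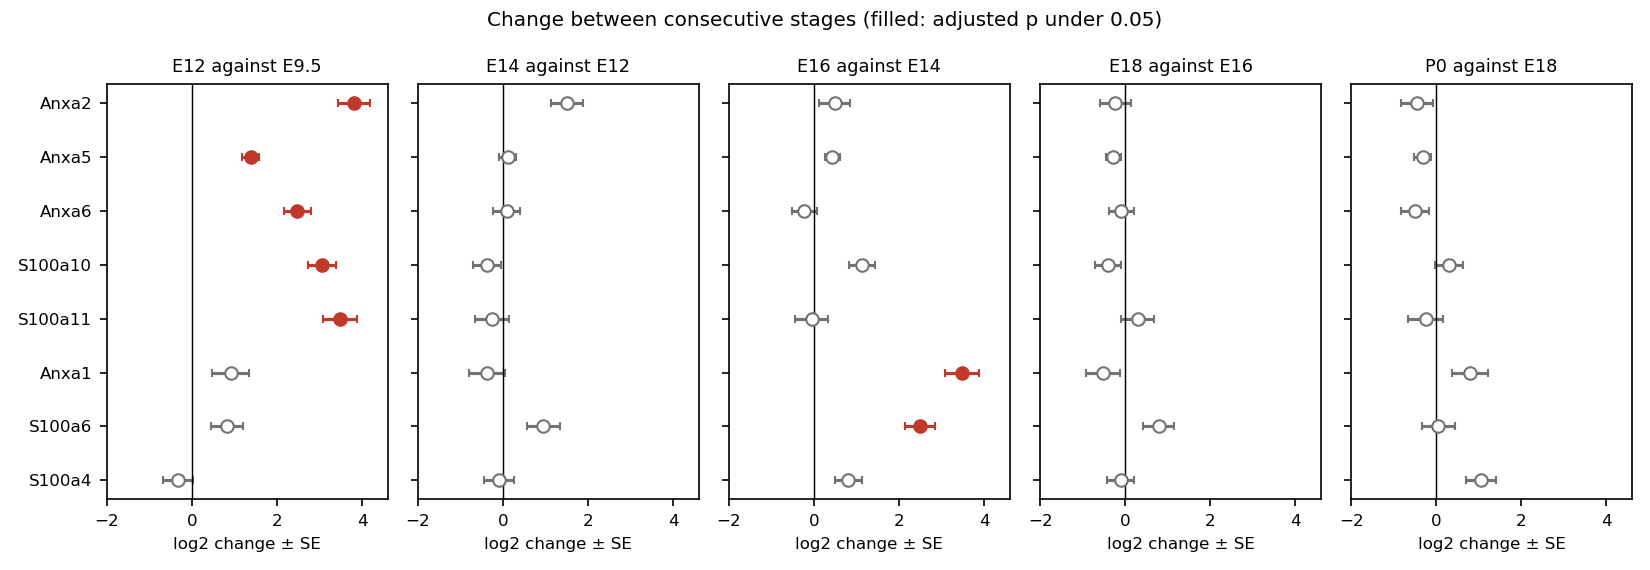
Fitted log2 change (x axis, with SE bars) of the brightest probe set of each gene between consecutive stages, the later stage over the earlier, 1 panel per comparison. Filled points have an adjusted p under 0.05. They are 5 genes for E12 against E9.5 and 2 genes for E16 against E14, all to the right of 0, and there are none in the other 3 panels.

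After E16 little passed the test. In E18 against E16, 0 of 11 probe sets were called, against 0.0768% of all probe sets, and in P0 against E18, 0 of 11, against 0.125%, both by limma. S100a6 and Anxa1 on 93037_i_at for E18 against E16, and S100a4 for P0 against E18, had an unadjusted p under 0.05. Again the share of all probe sets at that threshold is not given. S100a6 had 2343, 1970 and 2610 at E18, against 1021, 1550, 1025 and 1903 at E16 (log2 change 0.79, SE 0.36, adjusted p = 0.60). S100a4 had 1161, 737 and 724 at P0, against 468, 405 and 367 at E18 (log2 change 1.05, SE 0.35, adjusted p = 0.26). Neither pair overlapped. Anxa1 on 93037_i_at had 97.3, 74.7 and 75.3 at E18, against 114, 172, 148 and 114 at E16 (log2 change -0.72, SE 0.31, adjusted p = 0.56).

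P0 against E12 spans the development of the nerve from precursors to the newborn. Here 5 of 11 probe sets rose, 1 each of S100a6, Anxa2 and S100a4 and 2 of Anxa1, and 0 fell, while 4.53% of all probe sets rose and 16.4% were called in either direction. The median log2 change of the 8 genes was 0.96, against -0.02 over all probe sets tested.

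S100a6 had 1245, 3454 and 3112 at P0, against 194, 136 and 67.3 at E12. It was at least 19.5-fold higher, since 1 E12 array lay at the floor (log2 change 4.28, SE 0.38, adjusted p = 9.7e-07). Anxa1 on 93038_f_at had 1174, 2527 and 766 at P0, against 174, 178 and 69.4 at E12, a 10.2-fold rise (log2 change 3.35, SE 0.43, adjusted p = 5.3e-05). On 161703_f_at it was at least 12.1-fold higher (log2 change 3.59, SE 0.45, adjusted p = 3.7e-05). With the GAPDH 3'/5' signal as a covariate the log2 changes of Anxa1 were 2.70 and 2.80 on these probe sets, and both still passed. For S100a6 and these probe sets of Anxa1 the lowest P0 array lay above the highest E12 array. The dimmest Anxa1 probe set, 93037_i_at, did not pass (log2 change 0.65, SE 0.33, adjusted p = 0.19). Its E12 arrays and P0 replicate 1 were at the floor.

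S100a4, a small protein that binds myosin and is made by motile and mesenchymal cells, had 1161, 737 and 724 at P0, against 259, 311 and 248 at E12. The groups did not overlap, and the rise was 3.14-fold (log2 change 1.65, SE 0.35, adjusted p = 0.0037). With the GAPDH 3'/5' signal as a covariate the log2 change was 1.06 and the adjusted p 0.041. Its stage means ran from 341 ± 47.7 at E9.5, 273 ± 33.8 at E12 and 256 ± 19.5 at E14 to 503 ± 276 at E16, 414 ± 51.1 at E18 and 874 ± 249 at P0 (SD, n = 3, at E16 n = 4). Every neighbour in the order of these means overlapped, P0 with E16 included. On the brightest probe set of each gene, it was the only one of the 8 with a lower mean at E12 than at E9.5.

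Anxa2 had 1648, 4901 and 4363 at P0, against 1357, 1260 and 1379 at E12, a 2.46-fold rise (log2 change 1.30, SE 0.38, adjusted p = 0.029). P0 replicate 1 lay close to the E12 arrays, and the other two well above. This call depended on the settings: it was lost in 11 of 32 alternatives, with adjusted p from 0.0024 to 0.14. Without P0 replicate 1 the log2 change was 1.80. The stage means of Anxa2 were 3819 ± 726 at E14, 5377 ± 1311 at E16 (n = 4), 4479 ± 231 at E18 and 3637 ± 1744 at P0 (SD, n = 3 otherwise), and neighbours among these 4 stages overlapped.

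Lots 1 and 4 held both E12 and P0. Within lot 1 the log2 change was 2.68 for S100a6, 2.75 for Anxa1 on 93038_f_at, 3.98 on 161703_f_at, 2.16 for S100a4 and 0.28 for Anxa2. Within lot 4 it was 5.51, 3.46, 2.90, 1.55 and 1.66 in the same order. The Schwann lineage sum was 11776 to 18994 at P0 and 13121 to 15559 at E12, with Mbp and Pmp22 called higher and 2 markers lower. The fibroblast sum was 23826 to 31392 at P0 and 16056 to 17711 at E12, with Col1a1, Col1a2 and Col3a1 called higher and 1 marker lower, while Dcn was 164 ± 22.5 against 90.0 ± 30.4 (SD, n = 3 each). Of 4 perineurial markers tested, only Itgb4 was called, with 960 ± 517 at P0 and 72.8 ± 29.7 at E12 (SD, n = 3 each). Krt8 averaged 440 at P0 against 870 at E12, Slc2a1 149 against 187 and Tjp1 1140 against 1120. The median log2 change of the 4 was -0.21, and the perineurial sum was 2233 to 3175 at P0 and 2157 to 2477 at E12. The sum of the dissociation stress genes was 30404 to 47287 at P0 and 17634 to 35726 at E12, with 2 of 15 called higher, Atf3 and Zfp36. The macrophage sum was 1088 to 1577 at P0 and 2237 to 4960 at E12. The part of these markers in the rise was not tested.

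Anxa5, Anxa6, S100a10 and S100a11 did not pass the test within the nerve with the main settings. From E12 to P0 in order of age, Anxa5 had stage means of 2729 ± 366, 2937 ± 150, 4006 ± 750, 3259 ± 217 and 2678 ± 723. Anxa6 had 1539 ± 122, 1660 ± 363, 1470 ± 580, 1307 ± 86.5 and 996 ± 461 over the same stages. S100a11 had 1818 ± 270, 1517 ± 173, 1514 ± 553, 1776 ± 187 and 1629 ± 734 (SD, n = 3, at E16 n = 4). S100a10 on 92539_at had 913 ± 116, 700 ± 44.3, 1640 ± 634, 1150 ± 198 and 1431 ± 343. In P0 against E12 the log2 change was -0.06 (SE 0.20) for Anxa5, -0.73 (SE 0.32) for Anxa6, -0.28 (SE 0.41) for S100a11 and 0.63 (SE 0.33) for S100a10. Their adjusted p over the 5 nerve stages were 0.13 for Anxa5, 0.34 for Anxa6, 0.94 for S100a11 and 0.095 for S100a10, which do not show that the levels were equal. By that F-test Anxa5 passed in 4 of 32 alternatives and S100a10 on 92539_at in 2. Anxa6 was called lower in P0 against E12 in 2 of 32.

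**Figure D3:**
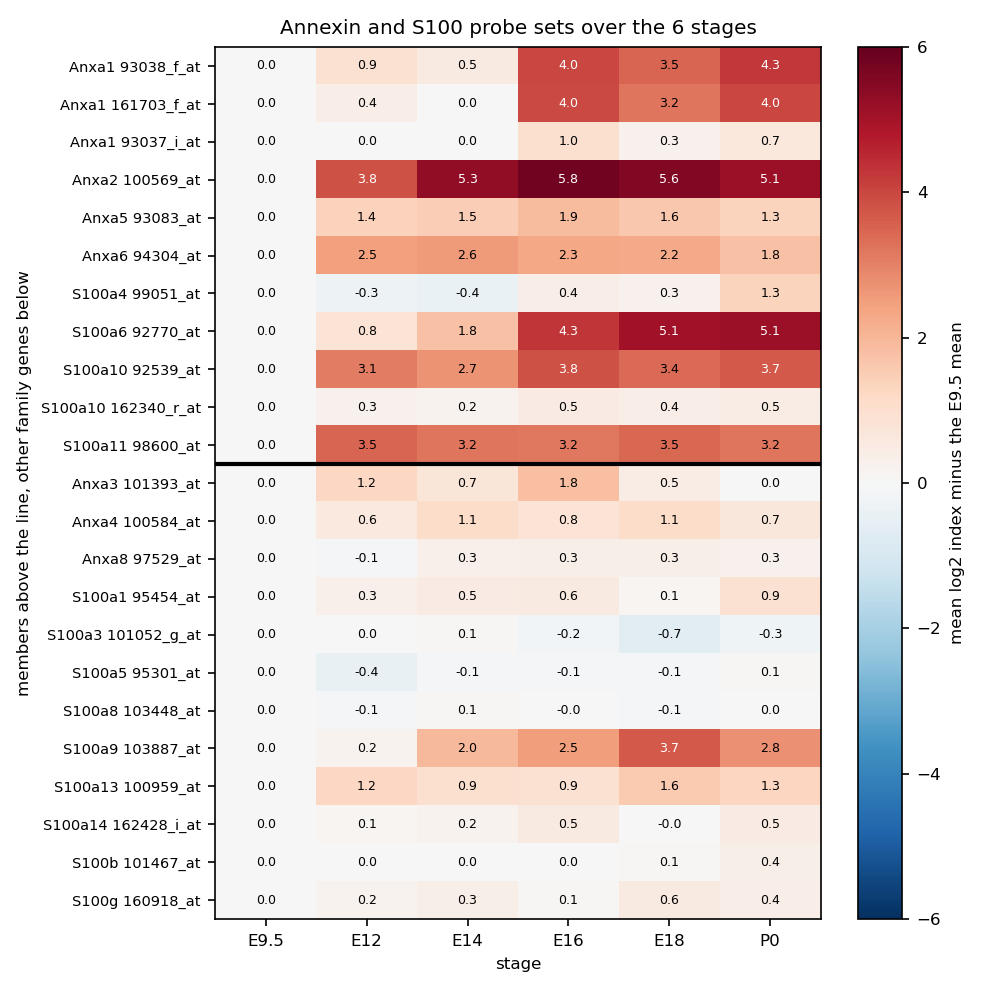
Mean log2 expression index of each probe set at the 6 stages (columns) minus its E9.5 mean, as colour and printed value, with the 11 probe sets of the 8 genes above the line and the tested probe sets of other annexins and S100 genes below it. The rows of Anxa2, S100a10 (92539_at) and S100a11 are red by E12 and those of Anxa1 and S100a6 by E16, while below the line the row of S100a9 is the darkest.

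At E16 and P0 these genes varied between arrays more than at E18. Each P0 array was of another lot, so lot and array cannot be told apart there. P0 replicate 1, of lot 1, was the lowest P0 array for 6 of 11 probe sets, the highest for 3 and between the others for 2. It was lowest for Anxa2, Anxa5, Anxa6, S100a6, S100a11 and Anxa1 on 93037_i_at, and highest for S100a4 and both probe sets of S100a10. At E16 both lot-1 arrays lay above the other pair for 5 probe sets, below it for 2 and mixed with it for 4. The 5 were those of S100a4, both of S100a10 and both bright ones of Anxa1, and the 2 were those of Anxa2 and Anxa5. These lot-1 arrays had GAPDH 3'/5' signals of 5.80 and 9.12 at E16 and 7.69 at P0. Their summed index of 7 Schwann lineage markers was 11373 and 10686 at E16, against 15001 and 17707 on the other E16 arrays. At P0 it was 11776, against 17548 and 18994 on the others. The part of RNA length, of the lot or of the glial signal in the spread was not tested.

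**Figure D4:**
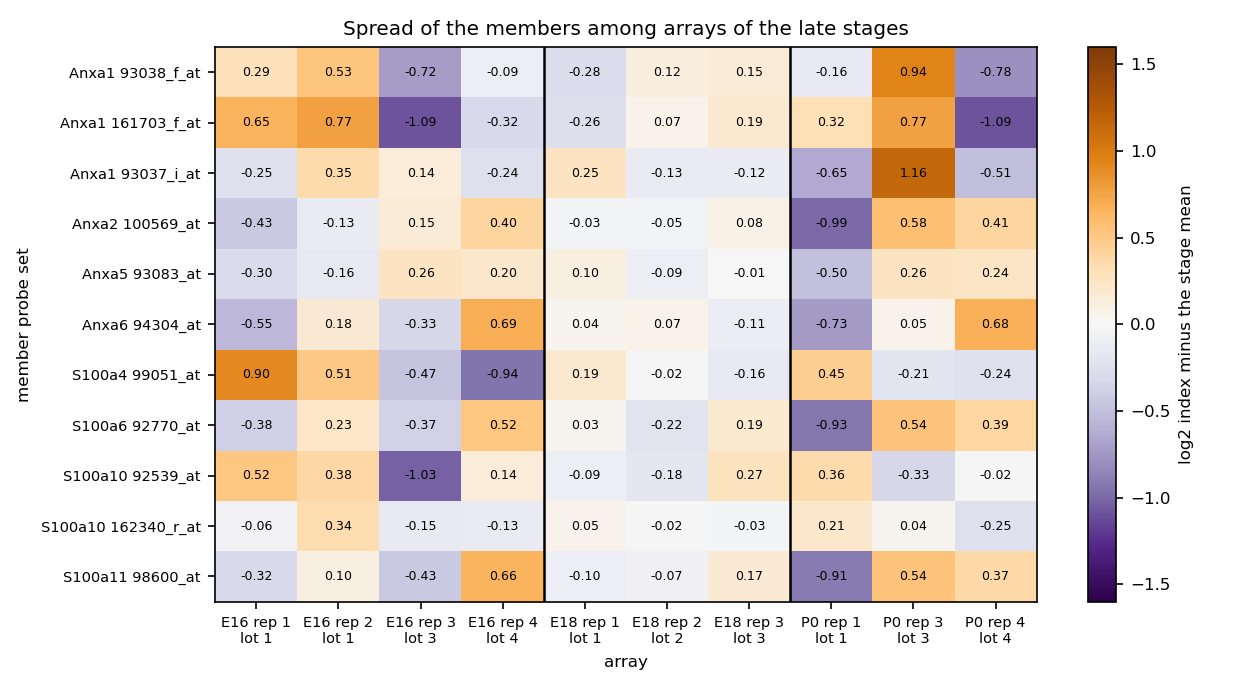
Log2 expression index minus the stage mean (colour and printed value) of the 11 probe sets on each array of E16, E18 and P0, with the lot under each array. The E18 columns are pale, with values between -0.28 and 0.27, while P0 replicate 1 has values of -0.99 for Anxa2 and 0.45 for S100a4.

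Of 8 other annexins, 5 were on the array and 3 were tested. Over the 6 stages 2 of 3 differed, against 29.0% of all probe sets, and in E12 against E9.5, 1 of 3 was called, against 14.1%. Anxa3 rose in E12 against E9.5, with 178 ± 97.1 against 31.2 ± 14.1, at least 2.34-fold (SD, n = 3 each; log2 change 1.23, SE 0.36, adjusted p = 0.029). It fell in P0 against E12, with 40.2 ± 20.1 at P0 (log2 change -1.23, SE 0.36, adjusted p = 0.027), at which all P0 arrays were at the floor. The first of these calls was lost in 8 of 32 alternatives and the second in 7. Anxa4 differed over the 6 stages (adjusted p = 0.0057), with a lowest mean of 84.0 ± 13.1 at E9.5 and a highest of 180 ± 43.3 at E18. No other annexin on the list was called in these comparisons.

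Of 12 other S100 genes, 10 were on the array and 9 were tested. Over the 6 stages 2 of 9 differed, against 29.0% of all probe sets, a share close to the general one. S100a9, which pairs with S100a8 in neutrophils, was listed at 0 on all 3 E9.5 arrays and averaged 60.3 ± 41.7, 274 ± 77.5, 425 ± 167, 888 ± 68.5 and 603 ± 467 from E12 to P0. It rose in P0 against E12, at least 5.91-fold (log2 change 2.56, SE 0.50, adjusted p = 0.0022). The log2 change was 3.31 without P0 replicate 1 and 1.94 without P0 replicate 3, and with only the arrays of these stages the adjusted p was 0.055. Its partner S100a8 stayed near the floor, with stage means between 57.8 and 76.9, and of 7 neutrophil markers tested S100a9 was the only one called higher in that comparison. S100a13, which helps release signal proteins that lack a leader peptide, rose in E12 against E9.5, with 317 ± 80.1 against 134 ± 32.7, or 2.36-fold on its brightest probe set, 100959_at (SD, n = 3 each; log2 change 1.24, SE 0.36, adjusted p = 0.028). That call was lost in 4 of 32 alternatives. Its other probe sets disagreed, with means of 226 at E12 and 111 at E9.5 on 161121_f_at, but 179 at E12 and 201 at E9.5 on 100960_g_at and 44 against 61.1, under the floor, on 161862_i_at.

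On RefSeq's order for GRCm38.p6, most S100 genes lie together on chromosome 3, and among S100 genes S100a4 stands after S100a3 and S100a2 and before S100a5 and S100a6, with S100a11 and S100a10 next to each other. S100a2 was not analysed here. S100a6 rose at E16, while its neighbour S100a5 was not called in any comparison (F-test over the 6 stages, adjusted p = 0.29). S100a11 and S100a10 both rose at nerve entry. S100a9, which stands before S100a11, had its highest mean at E18. S100a3 had 2 probe sets that disagreed: 101051_at rose in P0 against E12, with 116 against 51.2 (at least 1.66-fold, adjusted p = 0.017), and 101052_g_at had 569 against 681 (adjusted p = 0.58).

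The genes whose log2 values over the 19 arrays were most like those of each member are given with Pearson's r, as a description, since all points share the same arrays and stages. For Anxa2 they were Apoe (0.98), the lipid carrier, and Ahnak (0.973), a giant scaffold that binds the complex of Anxa2 and S100a10. For Anxa1 they were Srgap2 (0.976) and Col15a1 (0.917), and for S100a6 Rarres2 (0.967) and Scg3 (0.965). For Anxa5 they were Lama4 (0.953) and Dbi (0.948), and for Anxa6 Plxnd1 (0.946) and Dbi (0.936). S100a11 was most like Ednrb (0.949), the endothelin receptor of the crest lineage, and Plxnd1 (0.946). S100a10 was most like Pdgfa (0.949) and Gnai2 (0.948). The lowest likeness was that of S100a4, with S100a3 on 101051_at (0.865) and Prkcd (0.859).

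Of 24 genes for partners and receptors of the annexins and S100 proteins, 18 were on the array and 17 were tested. In E12 against E9.5, 3 rose (Ahnak, Sri and Capn2) and 1 fell (Cacybp), or 4 of 17, against 14.1% of all probe sets. Ahnak averaged 1543 ± 459 at E12 and was at the floor on all 3 E9.5 arrays, with a highest value of 43, so it was at least 21.8-fold higher (log2 change 4.45, SE 0.26, adjusted p = 7.7e-09). It rose again in E14 against E12, with 3727 ± 151 against 1543 ± 459 (SD, n = 3 each; 2.49-fold, SE 0.26 on the log2 scale, adjusted p = 0.011), a call lost without E12 replicate 4 (adjusted p = 0.054). Cacybp, the calcyclin-binding protein, averaged 1318 ± 65.3 at E12, against 2558 ± 306 at E9.5 (log2 change -0.95, SE 0.25, adjusted p = 0.018), and 583 ± 230 at P0 (P0 against E12, log2 change -1.24, SE 0.25, adjusted p = 0.0029). The first of these calls was lost in 4 of 32 alternatives. S100a6, which it binds, rose over that last span, as given above.

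In P0 against E12, 1 partner rose (Ahnak, 2.94-fold, adjusted p = 0.00065) and 3 fell (Cacybp, Sri and Pla2g4a), against 16.4% of all probe sets called. Pla2g4a, the cytosolic phospholipase A2 that annexins can inhibit, averaged 46.5 ± 14.3 at P0, with all arrays at the floor, against 108 ± 13.6 at E12 (SD, n = 3 each; log2 change -0.65, SE 0.18, adjusted p = 0.019), a call lost in 4 of 31 alternatives. Scn10a, a sodium channel that S100a10 carries to the membrane of sensory neurons, differed over the 6 stages (F-test, adjusted p = 0.006). It averaged 363 ± 121 at E9.5, 604 ± 82.8 at E12, 951 ± 74.6 at E18 and 727 ± 145 at P0 (SD, n = 3 each). It did not pass the F-test over the nerve stages (adjusted p = 0.39) and was called in no pairwise comparison. In E16 against E14, E18 against E16 and P0 against E18, 0 of 17 partners were called. Of all probe sets tested, only 1.69%, 0.0768% and 0.125% were called in these comparisons. The median log2 change of the 17 was 0.17 in E12 against E9.5 and 0.22 in P0 against E12.

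Of 16 other calcium-binding proteins, 14 were on the array and tested, and in E12 against E9.5, 1 rose and 2 fell, against 14.1% of all probe sets called. Sparc, a secreted glycoprotein of the matrix, averaged 1252 ± 519 at E12, against 58.2 ± 47.5 at E9.5, at least 14.7-fold higher (SD, n = 3 each; log2 change 3.88, SE 0.46, adjusted p = 2.1e-05). Casq2, a calcium store protein of muscle, averaged 244 ± 17.9 at E12, against 472 ± 32.5 at E9.5 (log2 change -0.95, SE 0.18, adjusted p = 0.0016). Calm2, a calmodulin gene, fell in this comparison (log2 change -0.50, SE 0.13, adjusted p = 0.017) and in P0 against E12 (log2 change -0.43, SE 0.13, adjusted p = 0.033). In the latter 0 of the 14 rose and Rcn2 also fell, against 16.4% of all probe sets called. The Calm2 probe set was dim, with 135 ± 10.8 at E9.5, 96.2 ± 11.1 at E12 and 64.3 ± 13.3 at P0 (SD, n = 3 each). At P0, 2 of its 3 arrays lay at the floor. The first of these Calm2 calls was lost in 6 of 31 alternatives and the second in 10. Hpcal1, a neuronal calcium sensor, differed over the 6 stages (adjusted p = 0.0036), with a highest mean of 1231 ± 23.4 at E12 and a lowest of 628 ± 25.3 at E18. The median log2 change of the 14 was -0.05 in E12 against E9.5 and -0.03 in P0 against E12.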

How the data were processed

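RNA from sorted cells was amplified by 2 rounds of in vitro transcription and hybridized to Affymetrix mouse arrays, per the labels' protocols. The deposited values are linear intensity values, model-based expression indices that the authors computed with dChip after spline normalization, with probe sensitivities from 18 arrays, per the labels. No version of dChip was named. There were 19 arrays, 2363 zero values and 0 identical pairs of arrays. A low index is poorly resolved, and the number of arrays limits the precision.

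Values under the 25th percentile (68.5) were raised to that floor before taking log2. Probe sets above the floor on 3 arrays or more, 10414 without the 66 controls, were fitted together, each stage having its own mean, by lmFit and eBayes of limma 3.58.1 under R 4.3.3 (13 residual degrees of freedom). Adjusted p-values are 2-sided Benjamini-Hochberg values within a comparison, called at 0.05. Standard errors are those of the log2 change. A fold with arrays of the lower stage at the floor is written as "at least". All p-values refer to the spread between these arrays, which may be technical. Genes were named through the platform annotation, in which 10833 probe sets carry 1 symbol, 396 several and 1193 none. A gene with several probe sets is summarised by its brightest.

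The lists were other annexins, other S100 genes, partners and receptors, other calcium-binding proteins, and markers of other cells. The genes and the lists were chosen with earlier results of these data known. From each list up to 4 genes with the smallest adjusted p over the 6 stages were named, plus the 2 genes most like each member. Sri, Capn2, Rcn2, S100a3, S100a5, S100a8, S100b and the marker genes were named after their values were seen. Alternatives were other floors, filters and normalizations, array weights, lot or replicate number as a block, a GAPDH 3'/5' covariate, another variance prior, fewer stages, and leaving out arrays. The fitting was tested on simulated data.

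Lot number equals replicate number except for E16 replicate 2, of lot 1. Between arrays of different stages, deviations from the stage mean correlated by 0.042 on average over 39 same-lot pairs, against -0.015 over 111 other pairs. For the replicate number this was 0.022 over 38 sharing pairs, against -0.008 over 112 others. These are means over all tested probe sets and do not show whether single genes shift with a lot. Neither number was used for pairing in the main fit.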

Additional observations from a re-analysis of the deposited data

Results flagged for a closer look

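The second S100a10 probe set, 162340_r_at, had 1 array apart from the others at E16. Its expression index was 292 on replicate 2, against 207 to 220 on the other 3 arrays, and the gap made up 0.848 of the range of the 4 arrays. Chance marks about 1 in 20 groups of this size in this way, and E16 was the only stage with 4 arrays. Each of the 11 probe sets has such a group, so 1 mark among them is less rare than 1 in 20. The same array had the highest GAPDH 3'/5' signal, 9.12. The brighter S100a10 probe set did not set this array apart, with 1979 on replicate 2 and 2170 on replicate 1.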

How the results depend on the processing

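No call reversed under any of the 32 refits. Anxa2, Anxa5, Anxa6, S100a10 (92539_at) and S100a11 in E12 against E9.5 and Anxa1 (93038_f_at and 161703_f_at) and S100a6 in E16 against E14 and in P0 against E12, and S100a4 in P0 against E12, stayed called in all of them. The count in E14 against E12, reported as 0, was 1 with the floor at the 40th percentile, with quantile normalization, with lot as a random block, with only the arrays of the stages compared and with E16 replicates 1 and 2 and P0 replicate 1 left out (chosen after seeing the data), and 2 with array weights. Array weights also gave 7 in E12 against E9.5 and 7 in P0 against E12 (5 reported in both), 6 in E16 against E14 (3 reported), 3 in E18 against E16 and 3 in P0 against E18 (0 reported in both). The 10th percentile floor gave 7 in E12 against E9.5 as well, and there, with array weights and without E12 replicate 4 Anxa1 (93038_f_at) and S100a6 passed at nerve entry. With each array left out in turn, counts ran from 5 to 7 in E12 against E9.5, 0 to 1 in E14 against E12 (1 without E9.5 replicate 1 or any P0 array), 3 to 4 in E16 against E14, 0 to 0 in E18 against E16 and in P0 against E18, 4 to 5 in P0 against E12, 9 to 10 over the 6 stages and 4 to 6 over the nerve stages. With the replicate block, which rests on a shared number only, counts were 5, 0, 3, 0, 0 and 4 in the 6 comparisons and 10 and 5 by the F-tests. That block and the lot block (adjusted p = 0.053 and 0.056) ended the call of Anxa2 in P0 against E12, as did the GAPDH covariate (0.063), no filter (0.054), the 10th percentile floor (0.11), only the stages compared (0.11) and leaving out any E12 array, P0 replicate 3 or P0 replicate 4 (0.064 to 0.14). Anxa2 over the nerve stages was lost with the 10th percentile floor and without E12 replicate 2, up to an adjusted p of 0.073. The floor set the size of its rise at nerve entry, with a log2 change of 4.59 at the 10th and 3.19 at the 40th percentile, and that of Anxa1 (161703_f_at) in E16 against E14, with 4.83 and 3.06. Over all probe sets the calls ranged from 973 to 3039 in E12 against E9.5 (1469 reported), 128 to 1173 in E14 against E12 (218), 107 to 912 in E16 against E14 (176), 3 to 1153 in E18 against E16 (8), 2 to 865 in P0 against E18 (13, and 715 without P0 replicate 4) and 639 to 2911 in P0 against E12 (1705), with the highest count always under array weights. The causes of the other changes were not tested.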
